A study of Homo sapiens with 9 samples.

Results

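Copying a genome calls for a set of proteins that is made in quantity around S phase, the stage of the cell cycle in which DNA is duplicated, and the genes of 52 such proteins were followed through 9 Affymetrix Human Gene 1.0 ST arrays. The array annotation gave 50 of the 52 genes a probe set with that gene symbol and no other. BRCA2 and FANCD2 had none and have no values. UHRF1 and CLSPN had 2 such probe sets each, and the one with the higher mean signal over the 9 arrays was kept. All 50 genes had a signal of at least 5 on at least 1 array, the limit set for the table, and 39 of them had it on every array, while 11 had at least 1 array under it. Of all 33297 probe sets 17482 passed this limit, and they represent 11233 genes with a single symbol. The values are log2 signals, so a difference of 1 is a 2-fold difference, and levels cannot be set against each other between probe sets.

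The RNA was labelled as that of SK-BR-3, a breast cancer cell line, in 3 groups of 3 arrays. All 3 groups carried the vector pcDNA3.1/V5/His-pTOPO: with the cDNA of TFPIα, with the cDNA of TFPIβ, or empty. TFPIα and TFPIβ are isoforms of tissue factor pathway inhibitor, a protease inhibitor of blood coagulation, of which the α form is secreted and the β form is held on the cell surface. Each group was 1 stable pool of transfected cells sampled by separate RNA isolations, so that the spread between its arrays is not one between independent transfections. The labels name puromycin as the selecting drug and the methods of the study name neomycin.

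Before a cell divides, the MCM helicase is loaded on replication origins and then switched on by the kinase CDC7 with DBF4 and by CDC45 and the GINS complex. Primase and polymerase alpha start each strand, the RFC complex loads the ring PCNA, and PCNA holds polymerases delta and epsilon on the template. FEN1 and LIG1 join the lagging strand, ribonucleotide reductase and thymidylate synthase supply the building blocks, and CLSPN, TIMELESS, TIPIN and CHEK1 watch over forks that stall. Many of these genes are transcribed as cells pass from G1 into S phase, when E2F factors are released from the retinoblastoma protein, so their mRNA level in a culture is commonly read with the share of dividing cells. In such bulk RNA fewer cells in S phase and less RNA of these genes per cell cannot be told apart.

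The labelled line was set against its defining markers. ERBB2, which is amplified in SK-BR-3, had a log2 signal of 5.88 ± 0.18 (SD, n = 9) and KRT8, a luminal keratin, one of 5.86 ± 0.15 (SD, n = 9), while EPCAM, an epithelial adhesion molecule, stayed under the signal limit at 2.76. ESR1, a receptor that SK-BR-3 is known to lack, was under the limit as well, at 3.63. KRT18, another luminal keratin, had 10.40 ± 0.43 (SD, n = 9). KRT5 and KRT14, keratins of basal epithelium, had 12.64 ± 0.16 and 12.43 ± 0.29 (SD, n = 9). Of the markers named here that the label calls for, EPCAM was thus the one under the limit. ERBB2 and KRT8, which the label also calls for, passed the limit of 5 at only 5.88 and 5.86. That limit is close to the array medians of 4.78 to 4.88, so passing it does not establish the label. Passing the limit does not show that ERBB2 was amplified. The basal keratins, which the label does not call for, passed it, and every value below is that of the arrays as labelled. Of 12 luminal and ERBB2 markers 10 passed the signal limit, with a list mean of 6.78 to 6.87 in TFPIα, 6.76 to 6.97 in TFPIβ and 6.76 to 6.92 in empty vector. Of 10 basal markers 6 had a value, with a list mean of 10.17 to 10.37 in TFPIα, 10.08 to 10.57 in TFPIβ and 10.27 to 10.52 in empty vector. Of 8 leukocyte markers 2 passed, and PTPRC (2.23), CD3E (3.50) and LYZ (2.21) were under the limit. Of 8 fibroblast markers 4 passed, with COL1A2 and COL3A1 under the limit, and DCN stood at 10.13. TFPI had log2 signals of 5.66, 5.81 and 5.51 in TFPIα, 5.55, 5.79 and 5.81 in TFPIβ and 5.81, 6.48 and 6.45 in empty vector, and as the vectors carried coding sequence only while the study states that its probes read the untranslated ends, these values do not check the labels. The study also reports TFPI as higher in both TFPI groups with PLIER, a signal method that drops probes of low intensity. PLIER was not run here. The array medians lay between 4.78 and 4.88.

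Over all probe sets that passed, the arrays did not sort by group. TFPIα replicates 2 and 3 were closest to each other and empty vector replicate 3 to empty vector replicate 1, while the other 6 arrays were closest to an array of another group. TFPIβ replicate 3 was closest to TFPIα replicate 3, TFPIα replicate 1 and TFPIβ replicate 1 to each other, TFPIβ replicate 2 and empty vector replicate 2 to each other, and empty vector replicate 1 to TFPIα replicate 1. In the replication genes TFPIβ replicate 3 lay far above the other TFPIβ arrays. Where stated, values are also given without TFPIβ replicate 3. This array was singled out for its values in these same genes. Lower TFPIβ values and a smaller spread without it therefore follow from that choice. All other values include this array, among them most standard errors and p-values of single genes and most counts of the other gene lists. This holds also for TFPIα against empty vector, where the fit shares 1 estimate of the spread over all groups.

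The stretches of DNA before these genes hold a letter pattern that ties many of them together. RefSeq promoter windows (GRCh38.p14, 250 bases before to 50 bases after each annotated start) were found for 47 of the 52 genes, in 70 windows, with none for GINS4, FANCI, RPA2, POLD3 and RPA3. The E2F-type letters TTTGGCGC, TTTCCCGC, TTTCGCGC and TTTGCCGC, searched on both strands, were present in 24 of 70 windows (34.3%) against 3.31% of 35116 windows of all genes, and in 23 of 47 genes (48.9%) against 3.99% of 27305. CCAAT was found in 26 of 47 genes (55.3%) against 39.7% of all genes, and TTTGAA, the letters of the cell cycle element CHR, in 6 of 47 (12.8%) against 18.2%. An E2F-type match shared bases with CCAAT or TTTGAA in 0 of the 70 windows, and in TIPIN the matches on both strands share bases with each other. Shown here are 150 bases, from 120 before the start to 30 after it, of 7 genes whose E2F-type match lies in that stretch and which recur in the results, 5′ to 3′ on the strand of the gene, with the match in capitals. The windows lie at chr1:35769949-35770098 (minus strand) for CLSPN, chr1:91500992-91501141 (plus) for CDC7, chr10:94545668-94545817 (plus) for HELLS, chr14:49688185-49688334 (minus) for POLE2, chr16:85688925-85689074 (minus) for GINS2, chr20:5126593-5126742 (minus) for PCNA and chr20:25407553-25407702 (plus) for GINS1.
CLSPN: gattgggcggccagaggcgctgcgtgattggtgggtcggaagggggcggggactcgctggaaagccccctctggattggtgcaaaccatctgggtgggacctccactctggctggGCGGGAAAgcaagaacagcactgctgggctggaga
CDC7: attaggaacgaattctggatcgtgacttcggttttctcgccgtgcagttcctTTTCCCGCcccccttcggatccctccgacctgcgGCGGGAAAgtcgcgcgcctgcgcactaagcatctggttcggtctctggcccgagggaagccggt
HELLS: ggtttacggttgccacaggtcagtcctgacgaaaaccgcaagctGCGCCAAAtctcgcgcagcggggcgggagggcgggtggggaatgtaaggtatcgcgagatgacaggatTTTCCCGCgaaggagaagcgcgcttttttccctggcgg
POLE2: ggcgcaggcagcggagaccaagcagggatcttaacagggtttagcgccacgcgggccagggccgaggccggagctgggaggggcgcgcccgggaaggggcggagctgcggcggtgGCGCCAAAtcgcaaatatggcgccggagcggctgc
GINS2: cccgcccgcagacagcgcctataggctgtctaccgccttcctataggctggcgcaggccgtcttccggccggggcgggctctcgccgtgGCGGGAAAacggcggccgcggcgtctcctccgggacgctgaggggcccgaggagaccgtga
PCNA: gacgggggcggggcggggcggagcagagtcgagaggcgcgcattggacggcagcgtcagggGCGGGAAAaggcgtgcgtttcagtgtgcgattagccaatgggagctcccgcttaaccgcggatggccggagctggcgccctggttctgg
GINS1: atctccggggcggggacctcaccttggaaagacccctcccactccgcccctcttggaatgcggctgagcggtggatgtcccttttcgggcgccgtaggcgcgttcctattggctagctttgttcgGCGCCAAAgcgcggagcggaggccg
CDC7 and HELLS hold 2 matches each and the other 5 genes 1 each. A match is a run of letters and not a measured binding site.

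Averaged over the 50 genes, the log2 signal was 7.36, 7.41 and 7.59 in the TFPIα arrays 1 to 3, 6.48, 5.75 and 7.57 in the TFPIβ arrays and 6.68, 5.93 and 6.52 in the empty vector arrays. The 3 TFPIα arrays and TFPIβ replicate 3 were high and close together, and the other 5 arrays were all lower. The group means were 7.45 ± 0.12 in TFPIα, 6.60 ± 0.92 in TFPIβ and 6.38 ± 0.40 in empty vector (SD, n = 3 each), which put TFPIα above empty vector by 1.07 and TFPIβ above it by 0.22. Without TFPIβ replicate 3 the TFPIβ mean lay 0.27 below that of empty vector, and without empty vector replicate 2 the difference was -0.0029, whereas it was 0.65 without TFPIβ replicate 2 and 0.37 without empty vector replicate 1. Over the 9 arrays single genes spanned from 0.41 (RPA3) to 3.71 (CLSPN) log2 units with a median of 1.85, against a median of 0.59 over all probe sets. The mean of 10 housekeeping genes ran in the same order of groups within a smaller span, from 9.80 in replicate 2 of TFPIβ and of empty vector to 10.09 in TFPIα replicate 3, and its part in the result was not tested.

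**Figure D1:**
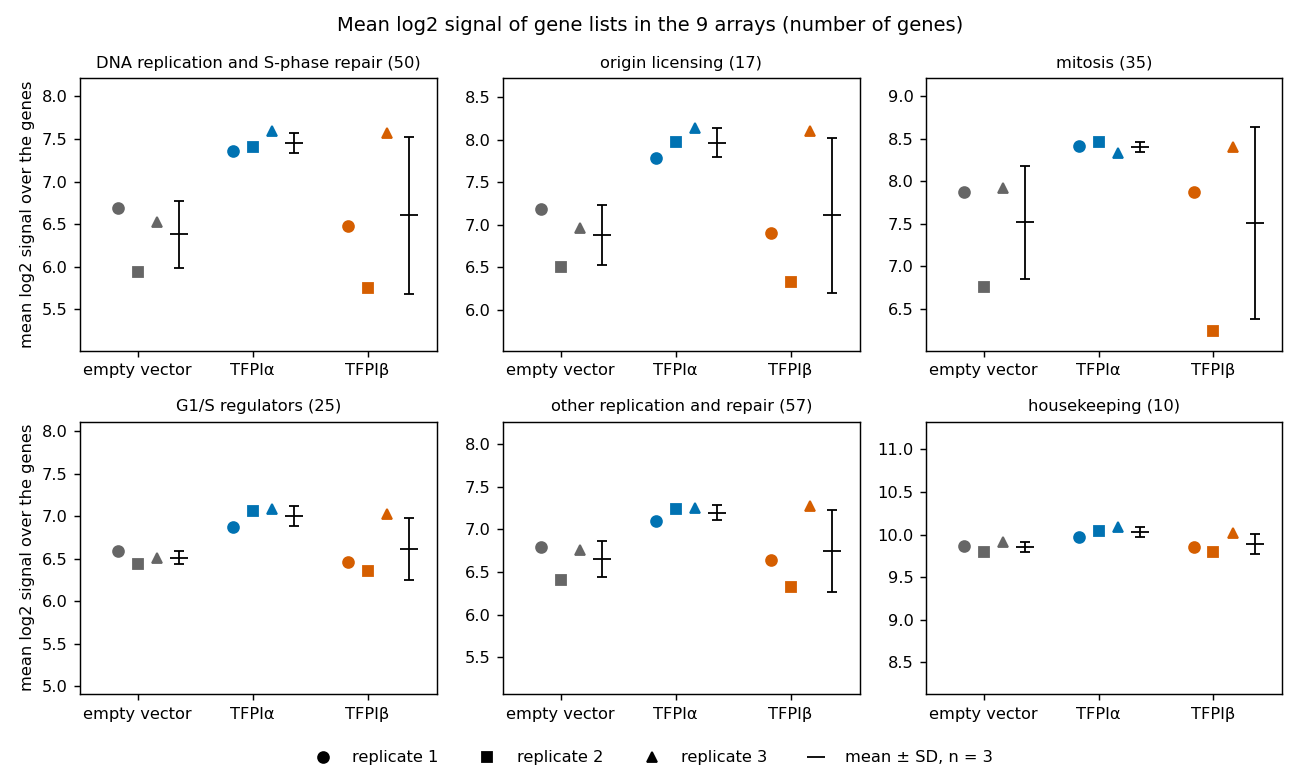
Mean log2 signal (vertical axes) of the 50 replication and repair genes, of 4 related gene lists and of 10 housekeeping genes in each of the 9 arrays, by group (horizontal axes). Points are arrays, with the shape giving the replicate number, and bars are the mean ± SD of a group (n = 3). In the first panel the TFPIα arrays lie between 7.36 and 7.59 and TFPIβ replicate 3 at 7.57, above the other TFPIβ arrays at 6.48 and 5.75.

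The order of the arrays was much the same from gene to gene. TFPIβ replicate 3 lay above every empty vector array in 50 of 50 genes, against 28.1% of all probe sets, and above both other TFPIβ arrays in 49, against 35.1%, with RPA3 as the exception. It lay within the range of the TFPIα arrays in 26 genes, against 52.8%, and above all of them in 19, against 20.9%, so that the first share is that of all probe sets. The lowest of the 9 values was found in TFPIβ replicate 2 for 38 genes, against 17.8% of all probe sets, in empty vector replicate 2 for 10, against 13.0%, and in TFPIβ replicate 1 and empty vector replicate 3 for 1 each. The highest value was in TFPIα replicate 3 for 22 genes, against 14.6%, in TFPIβ replicate 3 for 19, against 9.23%, in TFPIα replicate 2 for 5, against 7.83%, and in TFPIα replicate 1 for 4, against 9.46%. The range of a gene over the arrays was widest for CLSPN, POLE2 and EXO1.

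**Figure D2:**
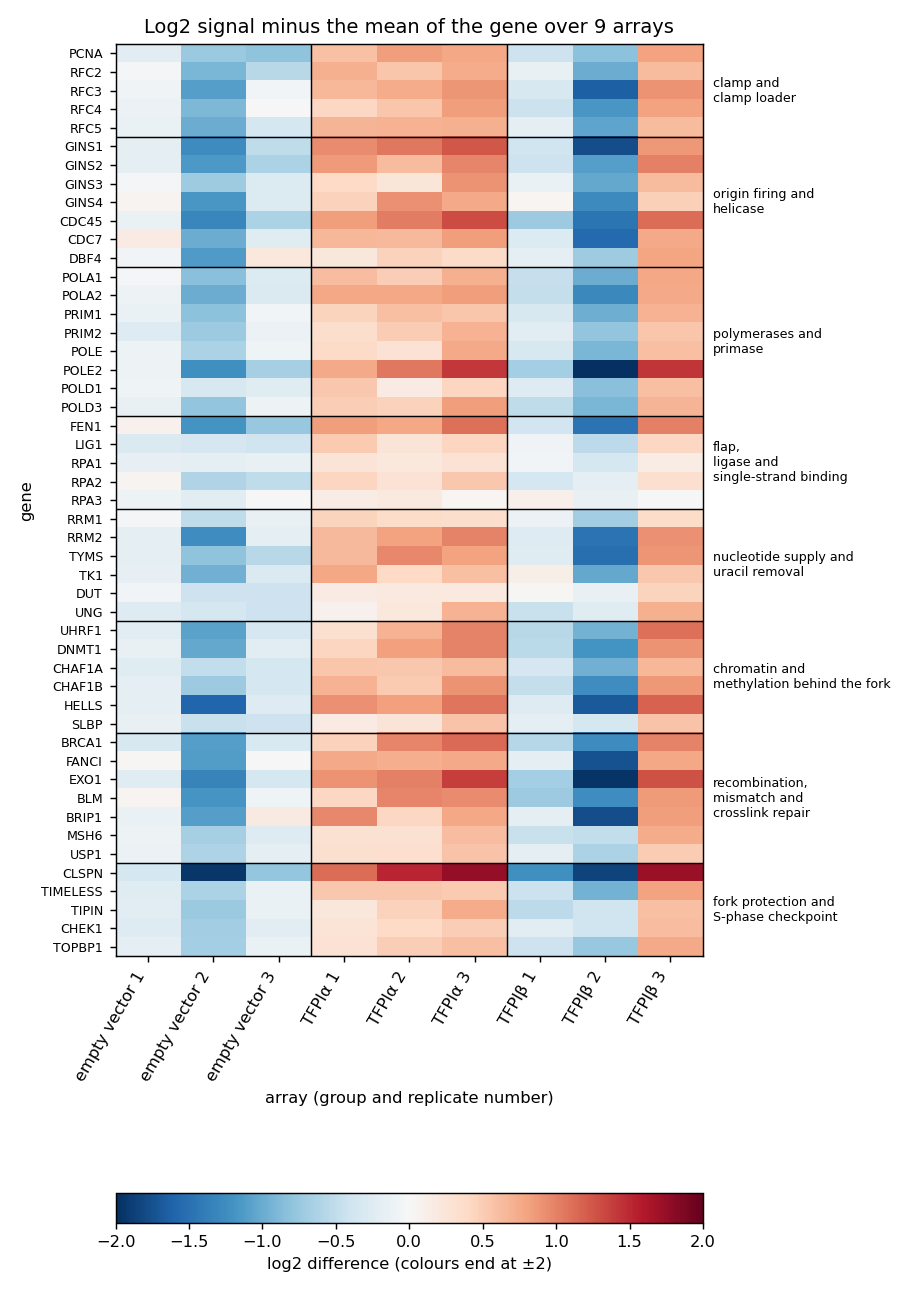
Log2 signal of 49 of the 50 genes (rows, grouped by role) in each array (columns, by group and replicate number), after subtraction of the gene's mean over the 9 arrays; red is above and blue below that mean, with colours ending at 2 log2 units either way. The 3 TFPIα columns and TFPIβ replicate 3 are red in nearly every row, and the replicate 2 columns of TFPIβ and empty vector hold the darkest blue.

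In cells labelled TFPIα the genes of DNA replication had higher signals than in empty vector cells, without exception among the 50, but none passed the test with its correction for multiple testing. For 50 of 50 genes the lowest TFPIα array lay above the highest empty vector array, against 14.4% of all probe sets, and the reverse held for 0, against 8.85%. The gap between these 2 arrays ran from 0.0067 for DBF4, where the groups all but touched, over a median of 0.54 to 1.46 for CLSPN. The log2 differences ran from 0.24 (RPA3) to 2.49 (CLSPN) with a median of 1.06, where the median of all probe sets was at 0. A fold of at least 2 was reached by 26 genes, against 1.22% of all probe sets. The counts of 50 and of 26 include POLE2, which reached the signal limit on no empty vector array. With limma, 0 genes were called at a fold of at least 2 and an adjusted p (Benjamini-Hochberg) under 0.05, against 0.00572% of all probe sets (1 of 17482), and the lowest adjusted p of a replication gene was 0.335. At an unadjusted p under 0.05, 37 of 50 were higher, against 8.59%, and 0 were lower, against 5.58%. The count moved with single arrays, also with those of TFPIβ, since all groups share 1 estimate of the spread in this fit. Without TFPIβ replicate 3 it was 48, against 11.8% of all probe sets, with a lowest adjusted p of 0.128, without TFPIβ replicate 2 it was also 48, against 10.1%, and without TFPIβ replicate 1 it was 28, against 7.64%. Without TFPIα replicate 1, 2 or 3 it was 23, 18 or 11, against 8.53%, 4.52% or 3.63%. Without empty vector replicate 1 it was 30, against 9.90%, without empty vector replicate 3 it was 21, against 5.29%, and without empty vector replicate 2 it was 4, against 4.06%. Between 3 and 3 arrays an exact permutation test cannot give less than p = 0.1.

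**Figure D3:**
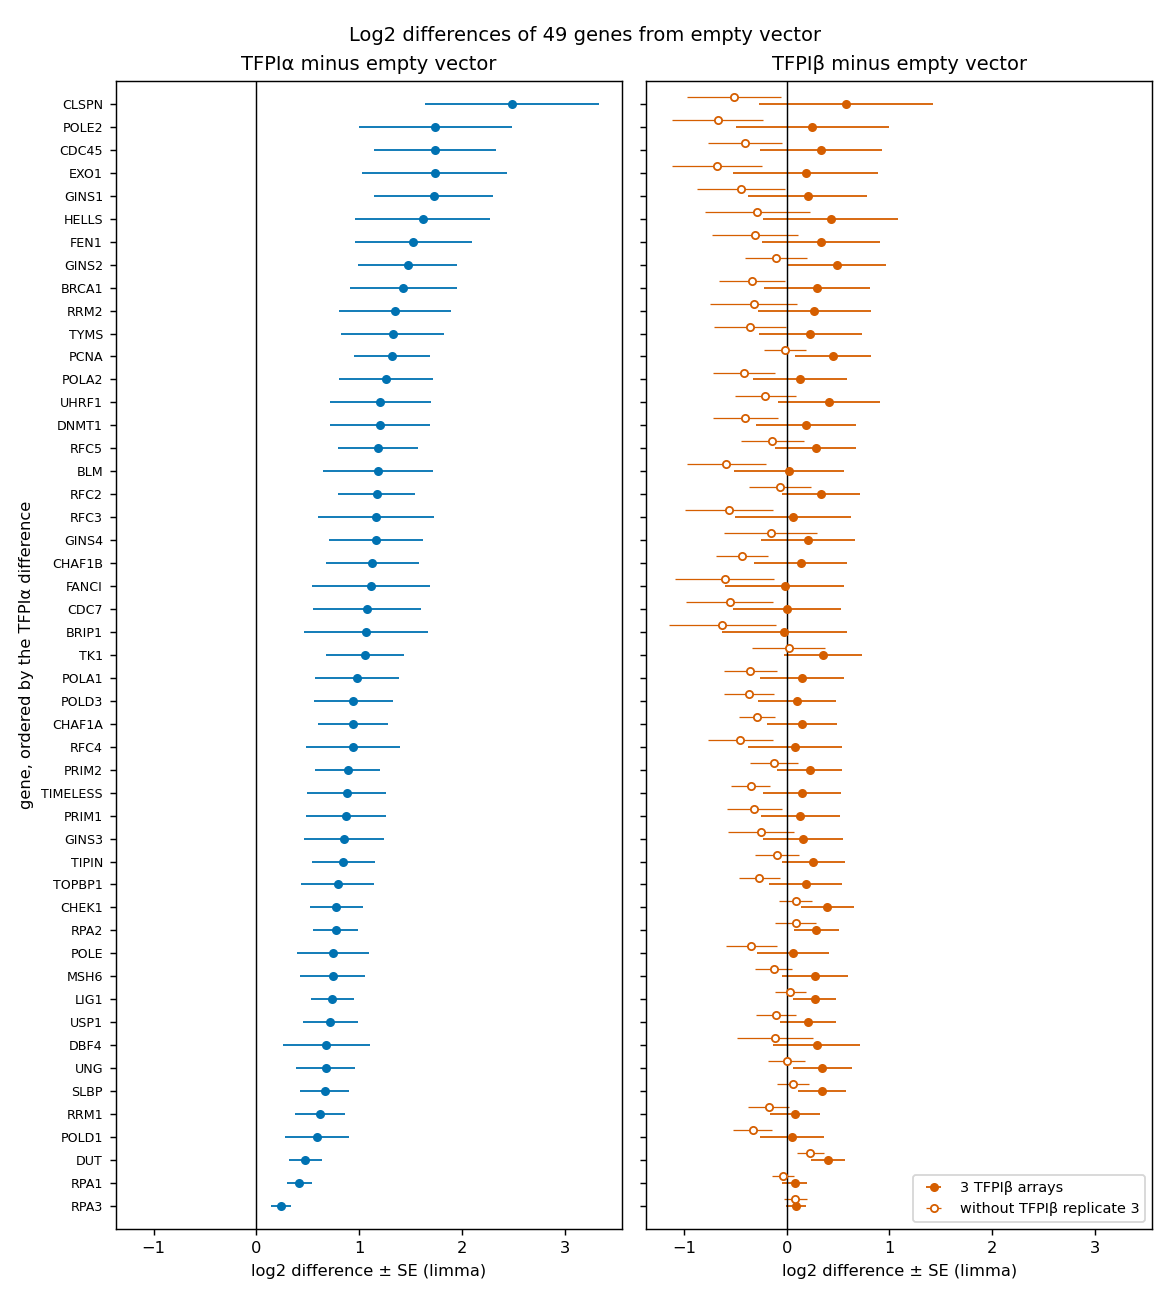
Log2 difference from empty vector (horizontal axes) with its standard error from limma for 49 of the 50 genes (vertical axis, ordered by the TFPIα difference), for TFPIα on the left and TFPIβ on the right; open circles leave out TFPIβ replicate 3. On the left all differences are above 0, from 0.24 to 2.49, and on the right they lie between -0.02 and 0.58 with all arrays and shift to the left without replicate 3.

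PCNA is the ring that clamps polymerases to DNA, and RFC2 to RFC5 are small subunits of the loader that opens it. PCNA had log2 signals of 9.82, 10.08 and 10.01 in TFPIα, 8.83, 8.43 and 10.04 in TFPIβ and 9.01, 8.50 and 8.43 in empty vector. Its TFPIα arrays were all well above the empty vector arrays, and TFPIβ replicate 3 sat among them. PCNA had the smallest p of the 50 genes in TFPIα against empty vector (log2 difference 1.32, SE 0.37, limma unadjusted p = 0.00681, adjusted p = 0.335). RFC2 had 8.59, 8.44 and 8.62 in TFPIα against 7.85, 6.96 and 7.33 in empty vector, a log2 difference of 1.17 (SE 0.38). For RFC3 the TFPIα arrays lay within 8.79 to 9.01 and the TFPIβ arrays were spread from 6.50 to 9.02, wider than the 7.03 to 8.07 of empty vector. The tightest TFPIα group of the loader was that of RFC5 with 7.57 ± 0.02 (SD, n = 3), above 6.39 ± 0.45 in empty vector. The 5 genes of this role had a median log2 difference of 1.17 between TFPIα and empty vector.

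The genes that fire origins had the same median, 1.17 over 7 genes. GINS1, a subunit of the complex that completes the active helicase, had 7.87, 7.97 and 8.15 in TFPIα, 6.51, 5.14 and 7.78 in TFPIβ and 6.74, 5.66 and 6.41 in empty vector. Between TFPIα and empty vector the arrays of GINS1 were separated by more than 1 log2 unit, and the log2 difference was 1.73 (SE 0.58). CDC45, which travels with MCM and GINS, had 7.66, 7.85 and 8.13 in TFPIα against 6.70, 5.52 and 6.20 in empty vector, and in TFPIβ it had 6.09, 5.37 and 7.95. Its log2 difference of 1.74 (SE 0.60) was the largest of the role. GINS2 had 7.09 ± 0.17 in TFPIα and 5.62 ± 0.48 in empty vector (SD, n = 3 each). CDC7, the kinase that switches the helicase on, had 6.18, 6.16 and 6.34 in TFPIα against 5.67, 4.51 and 5.26 in empty vector, with the replicate 2 value of empty vector under the signal limit. DBF4, the partner of CDC7, showed the least of the role (log2 difference 0.68, SE 0.42), with 5.02 as its lowest TFPIα and 5.01 as its highest empty vector value.

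Among the polymerases and the primase the median log2 difference was 0.92 over 8 genes. POLE2, the second subunit of polymerase epsilon, had 5.40, 5.69 and 6.06 in TFPIα, 3.95, 2.65 and 6.07 in TFPIβ and 4.53, 3.42 and 3.98 in empty vector. All empty vector values of POLE2 and both low TFPIβ values were under the limit of 5, so its log2 difference of 1.74 (SE 0.74) is set by signals near background. POLE2 thus passed the limit only through the arrays where it was high. POLA1, the catalytic subunit of polymerase alpha, had 7.18 ± 0.11 in TFPIα against 6.20 ± 0.42 in empty vector, and PRIM1, the primase that lays down the RNA primer, had 7.78 ± 0.08 against 6.91 ± 0.43 (SD, n = 3 each). POLA2, which links that polymerase to the primase, had 7.73, 7.72 and 7.79 in TFPIα, 6.47, 5.66 and 7.70 in TFPIβ and 6.84, 5.95 and 6.65 in empty vector. The TFPIα arrays of POLA2 were nearly identical and lay above all others, though TFPIβ replicate 3 all but touched them. The smallest difference was that of POLD1, the catalytic subunit of polymerase delta, at 0.59 (SE 0.31).

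The flap nuclease, the ligase and the single-strand binding proteins had the lowest median of the roles, 0.74 over 5 genes, with a wide spread between them. FEN1, which trims the flap of each Okazaki fragment, had 9.27, 9.22 and 9.55 in TFPIα, 8.05, 6.97 and 9.45 in TFPIβ and 8.53, 7.25 and 7.68 in empty vector, a log2 difference of 1.53 (SE 0.57). LIG1, which seals the fragments, had 7.07, 6.81 and 6.97 in TFPIα against 6.27, 6.22 and 6.15 in empty vector. The difference of LIG1 was smaller than that of FEN1 at 0.74 (SE 0.21), but its arrays were closer together in every group. In TFPIβ, which enters the shared estimate of the spread, the SD was 0.47 for LIG1 and 1.24 for FEN1. The p of LIG1 was the second smallest of the 50 (limma unadjusted p = 0.00701, adjusted p = 0.335). RPA1, RPA2 and RPA3 form the complex that coats single-stranded DNA. RPA1 had 7.96, 7.90 and 7.98 in TFPIα and 7.54, 7.51 and 7.55 in empty vector, and its TFPIβ arrays at 7.64, 7.35 and 7.84 straddled the empty vector values. The log2 difference of RPA2 was 0.77 (SE 0.22), of RPA1 0.42 (SE 0.12) and of RPA3 0.24 (SE 0.10). RPA3 varied least of all 50 genes over the arrays and was the one gene in which TFPIβ replicate 3, at 6.02, was below TFPIβ replicate 1, at 6.11.

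**Figure D4:**
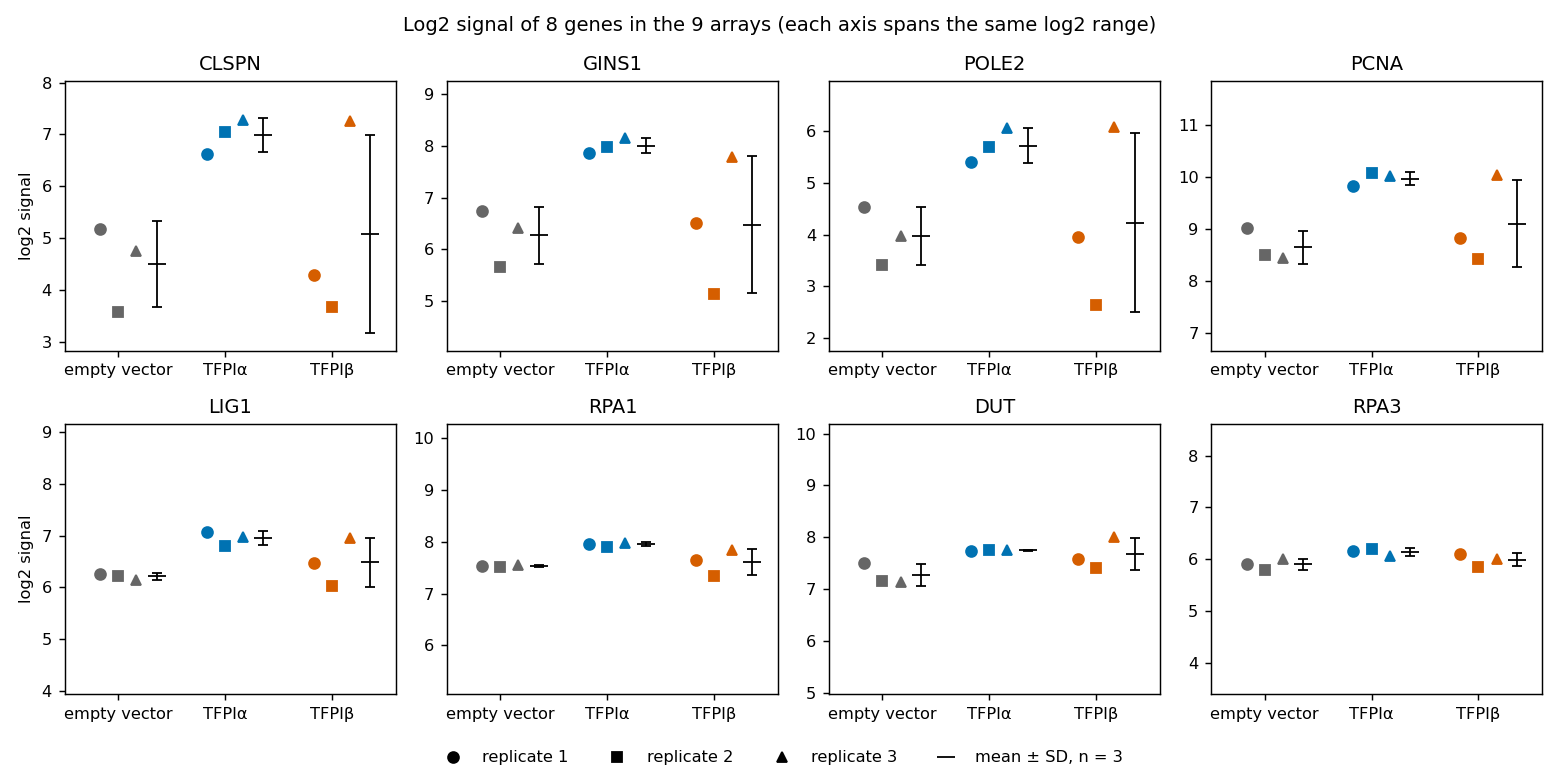
Log2 signal (vertical axes, all of the same span) of 8 genes in the 9 arrays, by group (horizontal axes); points are arrays with the shape giving the replicate number, and bars are the mean ± SD of a group (n = 3). CLSPN, GINS1, POLE2 and PCNA show TFPIβ replicate 3 level with TFPIα and far above the other TFPIβ arrays, while RPA1, DUT and RPA3 stay within 0.87 log2 units over all arrays.

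Genes that supply nucleotides or keep uracil out of DNA had a median log2 difference of 0.87 over 6 genes. RRM1 and RRM2 are the subunits of ribonucleotide reductase, and the second is made mainly in S phase. RRM2 had 8.04, 8.20 and 8.39 in TFPIα, 7.15, 5.92 and 8.32 in TFPIβ and 7.20, 6.15 and 7.22 in empty vector, with a log2 difference of 1.35 (SE 0.55). RRM1 had 9.94, 9.85 and 9.84 in TFPIα against 9.45, 8.98 and 9.34 in empty vector, with a log2 difference of 0.62 (SE 0.25). TYMS, which makes thymidylate, had 9.40 ± 0.15 in TFPIα against 8.07 ± 0.31 in empty vector (SD, n = 3 each), and TK1, the salvage kinase of thymidine, 8.30 ± 0.19 against 7.24 ± 0.43. DUT, which breaks down dUTP, had 7.73, 7.75 and 7.76 in TFPIα, 7.59, 7.41 and 8.01 in TFPIβ and 7.51, 7.15 and 7.15 in empty vector. The TFPIα arrays of DUT were nearly equal and lay below TFPIβ replicate 3. UNG, which removes uracil from DNA, had empty vector values of 6.21, 6.11 and 6.06 and reached 7.17 in replicate 3 of both TFPIα and TFPIβ.

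Behind the fork, chromatin and methylation are restored, and the 6 genes of this role had a median log2 difference of 1.17. HELLS, a chromatin remodeller needed for DNA methylation, had 6.93, 6.84 and 7.09 in TFPIα, 5.76, 4.34 and 7.19 in TFPIβ and 5.82, 4.43 and 5.76 in empty vector. Its replicate 2 arrays of TFPIβ and empty vector were the lowest of all and under the signal limit, and the log2 difference was 1.62 (SE 0.66). UHRF1, which finds hemimethylated sites, and DNMT1, which methylates them, both differed by 1.21 (SE 0.50 and 0.49). DNMT1 had 7.36, 7.76 and 7.92 in TFPIα against 6.78, 5.92 and 6.71 in empty vector. CHAF1A, the large subunit of the assembly factor that brings histones to new DNA, had 7.36 ± 0.05 against 6.42 ± 0.12 (SD, n = 3 each). SLBP, which binds the end of histone mRNAs, had the smallest difference here, 0.66 (SE 0.23), with 7.05, 7.16 and 7.46 in TFPIα and 6.75, 6.45 and 6.49 in empty vector.

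Repair genes that act on forks by recombination, mismatch correction or crosslink removal had a median of 1.15 over 8 genes. BRCA1, which guides recombination at broken forks, had 6.24, 6.74 and 6.90 in TFPIα, 5.20, 4.51 and 6.76 in TFPIβ and 5.45, 4.68 and 5.46 in empty vector, a log2 difference of 1.43 (SE 0.52). FANCI, part of the complex that is ubiquitinated at crosslinks, had 8.10, 8.07 and 8.10 in TFPIα against 7.36, 6.22 and 7.34 in empty vector, and BRIP1, a helicase that binds BRCA1, had 6.37, 5.81 and 6.18 against 5.28, 4.30 and 5.58. The largest difference in the role was that of the nuclease EXO1 at 1.74 (SE 0.71) and the smallest that of USP1, which takes ubiquitin off PCNA and FANCD2, at 0.72 (SE 0.27).

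CLSPN, the adaptor through which stalled forks activate CHEK1, had the largest difference of the 50 genes, read on the brighter of its 2 probe sets. Its log2 signals were 6.63, 7.04 and 7.29 in TFPIα, 4.30, 3.68 and 7.25 in TFPIβ and 5.17, 3.57 and 4.75 in empty vector. TFPIβ replicate 3 lay almost 3 log2 units above the next TFPIβ array, and of the 5 arrays outside TFPIα and that one, 4 were under the signal limit. The log2 difference between TFPIα and empty vector was 2.49 (SE 0.85, unadjusted p = 0.0182, adjusted p = 0.335). CHEK1, the kinase itself, had 8.06, 8.19 and 8.28 in TFPIα, 7.57, 7.40 and 8.41 in TFPIβ and 7.53, 7.09 and 7.56 in empty vector, with a smaller difference of 0.78 (SE 0.25). TIMELESS, which with TIPIN holds the fork together, had 6.61, 6.61 and 6.59 in TFPIα against 5.81, 5.43 and 5.93 in empty vector. The role had a median of 0.85 over 5 genes.

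Genes with an E2F-type match in a promoter window had a median TFPIα difference of 1.19 (22 genes with values, 0.48 to 2.49), and those with a window but no match one of 0.94 (23 genes, 0.42 to 1.74). The 2 ranges overlap over most of their length, and no test was made of this difference. Both CLSPN, with 1 match, and CDC45, with none, were among the genes with the largest differences.

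In cells labelled TFPIβ the same 50 genes were neither clearly above nor clearly below empty vector, and the 3 arrays disagreed. With all arrays 47 genes lay above 0 and 3 below, with a median log2 difference of 0.21 and a range from -0.02 to 0.58. Without TFPIβ replicate 3 the median was -0.30, with 7 genes above 0 and 43 below. With limma 0 genes were called, as were 0% of all probe sets, and 0 of the 50 had groups that did not overlap, against 3.43% higher and 3.74% lower over all probe sets. An unadjusted p under 0.05 was found in 1 gene, higher in TFPIβ, against 2.49%, and in 0 lower, against 2.23%. That gene was DUT, with a log2 difference of 0.40 (SE 0.16, unadjusted p = 0.0389), and the adjusted p was 1.0 for every one of the 50 genes. Without TFPIβ replicate 3 the count was 0 in each direction, against 3.02% and 2.68%, without TFPIβ replicate 2 it was 5 higher, against 2.71%, and without empty vector replicate 1 it was 2 higher, against 3.11%. It was 0 higher without TFPIβ replicate 1, against 2.71%, without TFPIα replicate 1, 2 or 3, against 2.35%, 1.88% or 2.01%, and without empty vector replicate 2 or 3, against 2.76% or 1.60%. After DUT, the smallest p-values were those of CHEK1, SLBP, RPA2, LIG1 and PCNA, with log2 differences of 0.40 (SE 0.25), 0.34 (SE 0.23), 0.29 (SE 0.22), 0.27 (SE 0.21) and 0.45 (SE 0.37). In PCNA the sign turned when TFPIβ replicate 3 was left out, to -0.02 (SE 0.20).

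Set against TFPIα, TFPIβ had a lower mean signal in 50 of 50 genes, with a median log2 difference of -0.84 and a range from -1.91 (CLSPN) to -0.08 (DUT). With limma 0 genes were called (0% of all probe sets), and the lowest adjusted p was 0.532. The groups did not overlap, with TFPIβ lower, in 4 genes, RFC5, GINS1, POLA2 and RPA1, against 7.10% of all probe sets, and 0 were higher, against 6.15%. The gaps were narrow. In these genes TFPIβ replicate 3 had 7.51, 7.78, 7.70 and 7.84, and the lowest TFPIα array 7.55, 7.87, 7.72 and 7.90. At an unadjusted p under 0.05, 7 of 50 were lower, against 4.70%, and 0 were higher, against 3.94%. A fold of at least 2 was reached by 18 genes, against 0.847%. The 6 smallest p-values were those of RPA1 (log2 difference -0.34, SE 0.12), GINS1 (-1.52, SE 0.58), POLA2 (-1.13, SE 0.46), CDC45 (-1.41, SE 0.60), PCNA (-0.87, SE 0.37) and CHAF1A (-0.79, SE 0.34).

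These counts depended on TFPIβ replicate 3. Without it, both other TFPIβ arrays lay below every TFPIα array in 49 of 50 genes, against 23.8% of all probe sets, with RPA3 as the exception. In that fit 47 genes were lower at an unadjusted p under 0.05, against 14.0%, 36 reached a fold of at least 2, against 2.35%, the median log2 difference was -1.32, and the lowest adjusted p was 0.116. As the omitted array was singled out for its high values in these genes, this rise was largely fixed in advance and adds no support. Other single arrays moved the count of 7 downwards. It was 0, 1 or 0 without TFPIα replicate 1, 2 or 3, against 5.90%, 2.06% or 1.52% of all probe sets, 1 without TFPIβ replicate 1, against 2.99%, and 0 without TFPIβ replicate 2, against 1.38%. Without empty vector replicate 1, 2 or 3 it was 4, 6 or 2, against 4.30%, 4.57% or 3.68%. The difference of the mean over 50 genes was -0.85 with all arrays, -1.34 without TFPIβ replicate 3 and -0.43 without TFPIβ replicate 2. With the replicate number as a block 36 genes were lower at an unadjusted p under 0.05, against 9.21%, with a lowest adjusted p of 0.32, and in TFPIα against empty vector 48 were higher, against 11.9%, with a lowest adjusted p of 0.183.

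By replicate number no gene passed the test, and the count of small p-values was near that of all probe sets. Averaged over the 3 groups, the mean over the 50 genes was 6.84 in the arrays numbered 1, 6.36 in those numbered 2 and 7.23 in those numbered 3. The arrays numbered 2 had the lowest value of their group in 46 genes for empty vector and in 47 for TFPIβ, against 38.5% and 35.0% of all probe sets, while in TFPIα they were the lowest in 21, against 29.9%. The log2 difference between numbers 3 and 2, adjusted for group, was above 0 in 50 of 50 genes with a median of 0.85, between 3 and 1 in 49 with a median of 0.37, and between 2 and 1 below 0 in 49 with a median of -0.43. Of all 17482 probe sets, 8773, 7902 and 10178 went the same way, in that order. With limma 0 genes were called for the replicate number (0% of all probe sets), with a lowest adjusted p of 0.254. An unadjusted p under 0.05 was found in 11 genes, or 22.0% of them, against 16.0% of all probe sets. The 6 smallest were those of BRIP1, TK1, POLE, GINS3, POLD3 and RFC4, with log2 differences between numbers 3 and 2 of 1.42, 0.81, 0.84, 0.92, 0.89 and 1.05. The count of 11 was 31 without TFPIα replicate 2, against 23.3%, 5 without TFPIα replicate 1, against 10.9%, 6 without TFPIβ replicate 1, against 9.82%, and 1 without either TFPIβ replicate 2 or empty vector replicate 2, against 10.7% and 11.3%.

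Other genes of the pathway were mostly higher in TFPIα too, with a lower median. Of 64 further replication and S-phase repair genes 57 passed the signal limit, and their log2 differences between TFPIα and empty vector had a median of 0.46, with 52 above 0 and 5 below. At an unadjusted p under 0.05, 21 were higher, against 8.59% of all probe sets, and 1 was lower, against 5.58%, and 35 had TFPIα arrays that all lay above the empty vector arrays, against 14.4%. Their mean was 7.09, 7.24 and 7.26 in TFPIα, 6.64, 6.33 and 7.28 in TFPIβ and 6.80, 6.41 and 6.76 in empty vector, again with TFPIβ replicate 3 level with TFPIα. MCM10, which helps the helicase to unwind, had a log2 difference of 1.99 (SE 0.63) and DSCC1, of an alternative clamp loader, 1.78 (SE 0.55). DSCC1 was under the signal limit on 4 arrays and MCM10 on 2, all of TFPIβ or empty vector, so background limits both differences. XRCC3 and FANCM, of recombination and of crosslink repair, had 0.42 (SE 0.12) and 0.67 (SE 0.22). Of TFPIβ against empty vector, 2 of the 57 were higher and 1 was lower at an unadjusted p under 0.05, near the 2.49% and 2.23% of all probe sets, and of TFPIβ against TFPIα 0 were higher and 5 lower, against 3.94% and 4.70%.

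Lists of the steps before and after S phase were counted in the same way. The 17 licensing genes, which load the helicase in G1, had a median log2 difference of 1.18 between TFPIα and empty vector, and 11 were higher and 0 lower at an unadjusted p under 0.05, against 8.59% and 5.58% of all probe sets. MCM4, a helicase subunit, had 8.35, 8.87 and 9.07 in TFPIα, 7.15, 7.04 and 9.07 in TFPIβ and 7.17, 6.72 and 7.06 in empty vector, a log2 difference of 1.78 (SE 0.49). GMNN, the inhibitor that blocks repeated licensing, differed by 1.37 (SE 0.45). Of 25 G1/S regulators with values 20 lay above 0 and 5 below, with a median of 0.41, and 12 were higher and 1 lower at an unadjusted p under 0.05, against the same shares. CCND3, a D-type cyclin, differed by 0.54 (SE 0.12) and E2F7, a repressor of E2F targets, by 1.00 (SE 0.38). The 35 mitosis genes had a median of 0.88 with 35 above 0, and the TFPIα arrays lay above the empty vector arrays in 31, against 14.4%. Of these genes 1, CDC20, which activates the anaphase ligase, had an unadjusted p under 0.05 in the same fit, with a log2 difference of 0.97 (SE 0.41), a count under the 8.59% of all probe sets, whereas without TFPIβ replicate 3 there were 7, against 11.8%. MKI67, a marker of cycling cells, had 8.57, 8.39 and 8.44 in TFPIα, 7.76, 5.69 and 8.45 in TFPIβ and 7.72, 6.33 and 8.03 in empty vector. Its low arrays were those numbered 2 in TFPIβ and empty vector, as for the replication genes. No test was made of the difference between the lists.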

How the data were processed

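Total RNA of 9 cultures labelled SK-BR-3 (3 TFPIα, 3 TFPIβ, 3 empty vector) was hybridised to Affymetrix Human Gene 1.0 ST arrays. The deposited values are log2 signals of probe sets, for which the authors ran RMA normalization in Partek software (versions not given in the sources used here); the log base was read from their range. A probe set was kept if at least 1 array reached a signal of 5, which held for 17482 of 33297: 11838 with 1 gene symbol, 1150 with several and 4494 with none. Genes were named by the annotation table of the array, and the brightest probe set stood for a gene. One linear model over the 9 arrays was fitted with limma 3.58.1 (R 4.3.3), and p-values were adjusted by Benjamini-Hochberg over all 17482 probe sets. The replicate number was tested with a moderated F in a model with group. The steps were tested on simulated data with independent noise in each probe set and array. Such data hold no genes that vary together and no array that stands apart, so the test does not cover these features. Python 3.11.15 and matplotlib 3.10.9 drew the figures.

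The members and all gene lists were chosen with earlier results of these data known, so no p was computed for a list or a mean over genes. Genes named with values were the 6 smallest p-values in each comparison, fixed representatives of each role, and up to 4 genes of each other list; genes named as an extreme or an exception were picked from the values. The values of 1 member are not reported here, though it stays in all counts and means. The labels number the arrays 1 to 3 in each group: after subtraction of group means, r lay between 0.137 and 0.594 in the 9 pairs of arrays with a common number and between -0.511 and 0.266 in 18 pairs without. These ranges overlap, so a pairing by number is possible but not settled, and a fit with the number as a block was an alternative. Others were a model without moderation, a trended and robust prior, only the compared groups, no filter, a filter at 6, arrays centred on their medians, an adjusted p under 0.10 and each array left out. Counts at an unadjusted p under 0.05 under these settings, and the block together with the omission of TFPIβ replicate 3, were added after the data had been seen. The number of arrays limits the precision.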

Additional observations from a re-analysis of the deposited data

How the results depend on the processing

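Under every alternative in which single genes were tested, 0 of the 50 genes were called in the 3 group comparisons and for the replicate number. Of 731 values of single genes under alternatives 729 kept their sign and their side of the threshold. The exceptions were PCNA in TFPIβ against empty vector, at -0.0189 without TFPIβ replicate 3 and -0.0625 when the replicate block was added to that omission, with a range of -0.0189 to 0.79 over the omissions of single arrays. Much of this agreement was fixed in advance. A block on all arrays, another prior, another filter or omission of an array of the group not compared leaves a log2 difference unchanged. No gene was under the threshold in the main fit, so keeping its side means only that none was called. Leaving out 1 array at a time, the count of genes higher in TFPIα than in empty vector at an unadjusted p under 0.05 ran from 4 to 48, that of genes higher in TFPIβ than in empty vector from 0 to 5, that of genes lower in TFPIβ than in TFPIα from 0 to 47, and that for the replicate number from 1 to 31. The differences of the mean over 50 genes ran from 0.85 to 1.23, from -0.27 to 0.65 and from -1.34 to -0.43 in the 3 group comparisons, with a value of -0.0029 for TFPIβ against empty vector without empty vector replicate 2. They ran from -0.999 to -0.17, 0.21 to 0.74 and 0.56 to 1.39 for replicate numbers 2 against 1, 3 against 1 and 3 against 2. Averaging all probe sets of a gene, which concerns UHRF1 and CLSPN, gave 1.05, 0.21 and -0.84 in the 3 group comparisons. The brightest probe sets gave 1.07, 0.22 and -0.85.

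With the replicate block, genes lower in TFPIβ than in TFPIα at an unadjusted p under 0.05 numbered 36 in place of 7, and 47 when TFPIβ replicate 3 was also left out, where TFPIβ against empty vector had 0 higher and 1 lower; the block moved no other count by more than 1.5 times with all arrays and changed no call. Without variance moderation these counts were 15 for TFPIα and 0 for TFPIβ against empty vector, 1 for TFPIβ against TFPIα and 3 for the replicate number, and when the fit left out the group not compared they were 0 and 1 for TFPIβ against empty vector and against TFPIα. The cause was not tested. In 11 of the 50 genes at least 1 array lay under a signal of 5, where differences are limited by background.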
